A study of Mus musculus with 8 samples.

Results

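The ligands of the EGF family and the ERBB receptors they bind were followed in mouse mammary tumor cells sorted by the expression of Dll1, a ligand of the Notch pathway. The set held 10 genes, chosen with earlier results of these data known and looked up in the count table by gene symbol. They were 7 ligands (Areg, Egf, Tgfa, Hbegf, Btc, Ereg and Nrg1) and 3 receptors (Egfr, Erbb2 and Erbb3), out of 53697 genes in the table. All 10 passed the filter on low counts that left 18322 genes to be tested. Tumors came from C57BL/6 mice that carry the MMTV-PyMT transgene, in which a mammary promoter drives the polyoma middle T antigen and luminal-like tumors arise. Dll1 was read out with 1 of 2 reporters. In PyMT-Dll1GFP mice (mouse 1 and mouse 2) GFP was knocked into the Dll1 locus, and in PyMT-Dll1mCh mice (mouse 3 and mouse 4) mCherry came from a BAC-based transgene. Every mouse gave 1 library of reporter-positive (Dll1+) and 1 of reporter-negative (Dll1-) tumor cells, 8 libraries in all, after CD45, CD31 and Ter119 cells had been removed. The age of the mice is not given in the sources used here, and every mouse carried both PyMT and a reporter, so no library stands for untransformed tissue. Each reporter line is represented by 2 mice.

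EGF family ligands are made as membrane-bound precursors, and proteases of the ADAM family cut the active growth factor from the cell surface. Areg, Egf and Tgfa bind the EGF receptor, Hbegf, Btc and Ereg bind the EGF receptor and ERBB4, and Nrg1, a neuregulin, binds ERBB3 and ERBB4. Binding pairs the receptors with each other. ERBB2 has no ligand of its own and is the preferred partner, whereas ERBB3 has little kinase activity and passes its signal on through PI3K. In the mammary gland, Areg is made by hormone-sensing luminal cells and carries the estrogen signal to neighboring cells during ductal growth.

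The promoters of the 3 ligands that fell in Dll1+ cells are shown first, since these genes moved the same way while their upstream sequences shared few of the motifs searched. Sequences are the 250 bases before the RefSeq transcript start on GRCm38.p6, 5′ to 3′ on the strand of the gene, and capitals mark a CRE (TGACGTCA), an RBPJ motif (GTGGGAA) or a GC box (GGGCGG) on either strand. For Egf, which has 2 starts in the table, the upstream one is shown.
Areg, chr5:91139349-91139598, plus strand: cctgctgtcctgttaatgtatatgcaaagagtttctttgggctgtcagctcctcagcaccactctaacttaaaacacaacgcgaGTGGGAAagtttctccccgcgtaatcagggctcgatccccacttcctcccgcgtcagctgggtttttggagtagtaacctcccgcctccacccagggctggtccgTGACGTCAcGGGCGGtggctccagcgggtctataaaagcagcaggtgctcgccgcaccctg
Egf, chr3:129755323-129755572, minus strand: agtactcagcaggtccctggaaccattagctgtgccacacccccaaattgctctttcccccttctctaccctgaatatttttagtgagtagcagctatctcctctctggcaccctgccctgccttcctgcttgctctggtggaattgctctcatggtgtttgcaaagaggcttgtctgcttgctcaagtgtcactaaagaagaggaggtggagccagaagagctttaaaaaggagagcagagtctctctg
Tgfa, chr6:86194972-86195221, plus strand: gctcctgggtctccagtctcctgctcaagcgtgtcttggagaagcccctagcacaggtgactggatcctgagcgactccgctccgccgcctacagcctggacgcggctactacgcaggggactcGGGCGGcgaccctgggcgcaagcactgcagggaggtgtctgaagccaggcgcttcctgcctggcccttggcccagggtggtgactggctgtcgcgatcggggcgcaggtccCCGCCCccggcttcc

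The Areg window held a CRE, the site bound by CREB, 61 bases before the start, an RBPJ motif, the site bound by the DNA-binding partner of Notch, 166 bases before it, and a GC box between the CRE and the start. The CRE letters stood in 1.55% and the RBPJ letters in 5.42% of 32851 promoter windows of this length. The Tgfa window held 2 GC boxes, letters found in 32.7% of the windows, and the Egf window held none of the motifs. AP-1 letters (TGANTCA, in 6.75% of windows) were in none of the 6 members with a window, which were these 3, Btc, Egfr and Erbb2. Both strands were searched, and a match is a description of letters, not of binding.

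The genes of the family lay at very different levels in these tumor cells. Counts scaled to library size by TMM (CPM) were divided by the merged exon length so that genes could be set against each other. Merged exons take in every annotated exon, not the transcripts expressed here, so the order of genes depends on this length. It was 1215 bases for Areg and 11326 for Egfr. In CPM alone Egfr was above Areg, with means of 71.9 and 20.5 in the Dll1- libraries. On this scale the highest mean over the 8 libraries was that of Erbb3, at 26.9 ± 7.46 CPM per kb (SD, 8 libraries of 4 mice), followed by Hbegf at 23.1 ± 15.5, Erbb2 at 19.97 ± 2.50, Areg at 11.1 ± 8.01 and Egfr at 8.49 ± 3.23. These neighbors overlapped: Hbegf ranged from 9.78 to 57.7 CPM per kb, on both sides of the means of Erbb3 and Erbb2, and Areg from 1.52 to 23.8, on both sides of the mean of Egfr. Tgfa (2.13 ± 0.684), Btc (1.40 ± 0.448), Egf (0.963 ± 0.334), Nrg1 (0.872 ± 0.603) and Ereg (0.418 ± 0.453 CPM per kb) were lower, and the highest of their libraries, 3.07 for Tgfa, was below the lowest library of Egfr at 4.77. Of the family genes outside the set, Nrg2 lay at 4.70 ± 1.24, Epgn at 1.59 ± 1.48, Erbb4 at 0.553 ± 0.335 and Nrg4 at 0.105 ± 0.0287 CPM per kb, while Nrg3 had 3 counts in the Dll1- library of mouse 3 and 0 counts in the other libraries. Erbb3, Erbb2, Egfr, Hbegf and Areg were the 5 most abundant genes of the family on this scale.

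The first comparison asked how Dll1+ tumor cells differ from Dll1- tumor cells of the same mouse. Of the 10 members 5 changed, and the ligands divided. Areg, Egf and Tgfa were lower in Dll1+ cells, Hbegf and Nrg1 were higher, and none of the 3 receptors passed the test over the 4 mice. With edgeR's quasi-likelihood test, the mouse as a term and Benjamini-Hochberg adjustment, 14.0% of the tested genes were called at an adjusted p under 0.05 in this comparison, 6.98% higher and 7.04% lower, beside 5 of the 10 members, 2 higher and 3 lower. The direction was the same in all 4 mice for 7 members, the 5 called ones, Btc and Egfr, where 41.3% of the tested genes had 1 direction in the 4 mice. For Egfr in mouse 4 and Btc in mouse 1 the difference was small, at 0.01 and 0.06 on the log2 scale of CPM. Without mouse 1, mouse 2 or mouse 3, Hbegf was the 1 member called, where 2.25%, 4.16% and 2.28% of all tested genes were. Without mouse 4 there were 6, with Egfr added, where 13.1% of all tested genes were called. In sorted bulk samples, fewer cells of a type and less RNA per cell cannot be told apart.

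**Figure D1:**
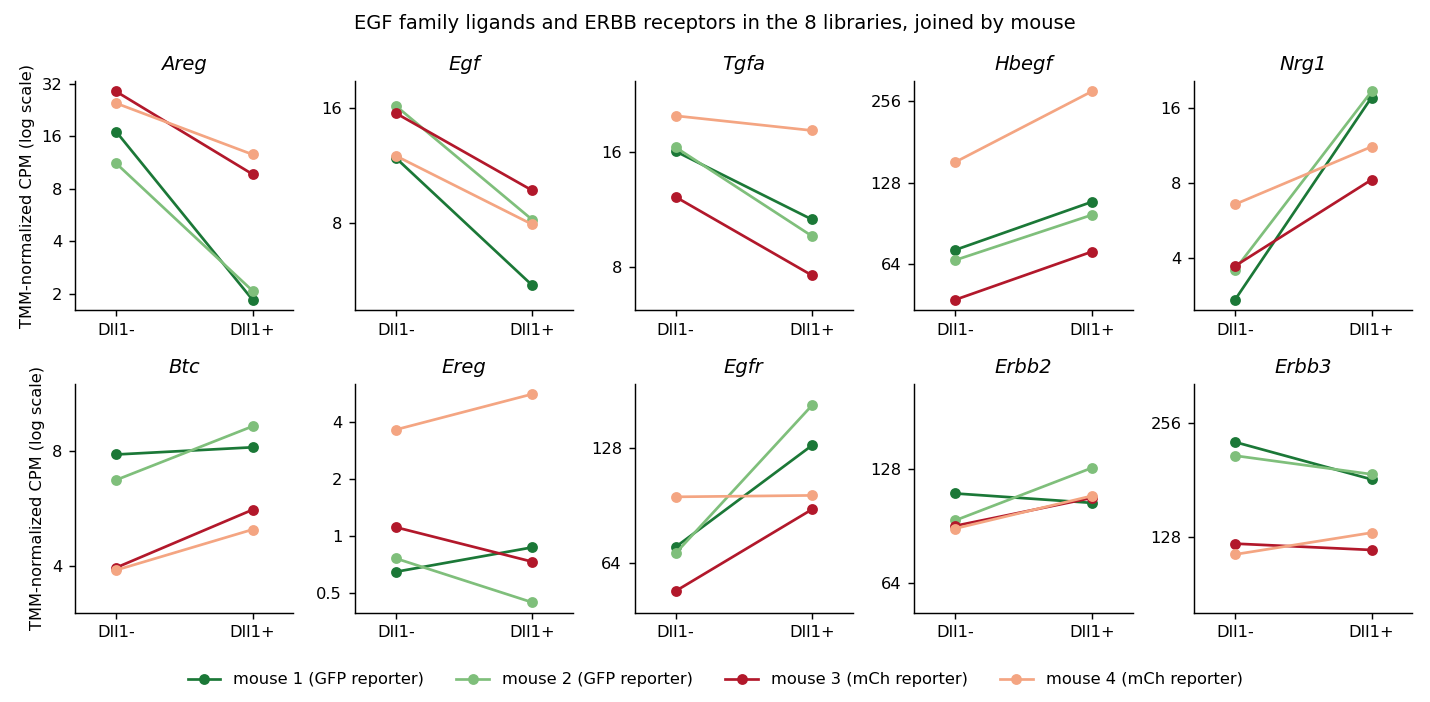
TMM-normalized CPM of each member (vertical axis, log scale, own range per gene) in the Dll1- and Dll1+ library of each mouse, with lines joining the 2 libraries of a mouse and color marking the mouse and its reporter. The lines of Areg, Egf and Tgfa fall in the 4 mice and those of Hbegf and Nrg1 climb in the 4 mice, and mouse 4 stands above the other mice in Hbegf and Ereg.

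Areg had the largest decrease of the set. In the Dll1- libraries of mice 1 to 4 it was at 17.0, 11.2, 28.9 and 24.7 CPM, and in the Dll1+ libraries at 1.85, 2.08, 9.69 and 12.6 CPM. Every mouse had less Areg in its Dll1+ cells, and the Dll1+ library of mouse 4 overlapped the Dll1- library of mouse 2. The log2 fold change was -1.97 (SE 0.39, 95% interval -2.96 to -0.98, edgeR adjusted p = 0.0362), 3.92-fold lower. The Dll1+ libraries of the GFP mice held 53 and 93 Areg counts, against 499 and 323 in their Dll1- libraries, so the decrease there rests on fewer counts than in the mCh mice, whose Dll1+ libraries held 635 and 699. Its promoter is the one with the CRE and the RBPJ motif above, and the part of these motifs in the decrease was not tested.

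Markers of hormone-sensing luminal cells, the cells that normally make Areg, moved with it. Of 7 tested markers, 6 were lower in Dll1+ cells and none was higher, with a median log2 fold change of -1.80, and the 18322 tested genes had a median of -0.000684. Cited1 (-2.40, adjusted p = 0.00633), Wnt4 (-2.05, 0.00798), Foxa1 (-1.88, 0.0244), Pgr (-1.80, 0.0408), Ly6a (-1.21, 0.0495) and Prlr (-0.75, 0.0289) fell, and Esr1, the estrogen receptor gene, stood at -0.35 without passing (adjusted p = 0.197). The summed level of the 8 listed markers was 184 to 292 CPM in the Dll1- and 92.3 to 133 CPM in the Dll1+ libraries, without overlap, and no marker was at 0 in all libraries. Tnfsf11, another target of progesterone, did not pass the filter. The part of these cells in the Areg difference was not tested.

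Egf, the founding ligand, was at 11.8, 16.2, 15.5 and 12.0 CPM in the Dll1- libraries and at 5.48, 8.14, 9.72 and 7.92 CPM in the Dll1+ libraries of mice 1 to 4. The groups did not overlap, as was the case for Nrg1 and no other member, and for 6.07% of all tested genes. Egf fell by 0.84 on the log2 scale (SE 0.12, edgeR adjusted p = 0.0128), a 1.79-fold decrease. Tgfa, which shares the receptor with Egf and Areg, was at 16.1, 16.5, 12.2 and 19.9 CPM in the Dll1- and at 10.6, 9.62, 7.58 and 18.2 CPM in the Dll1+ libraries. Each mouse had less Tgfa in its Dll1+ cells, mouse 4 by the smallest margin (0.13 on the log2 scale of CPM against 0.59 to 0.77 in the others), and the groups overlapped. The log2 fold change of Tgfa was -0.54 (SE 0.13, edgeR adjusted p = 0.0422).

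Hbegf, a ligand that is induced early by growth factor and stress signals, was at 72.3, 66.2, 47.3 and 153 CPM in the Dll1- and at 109, 97.3, 71.1 and 279 CPM in the Dll1+ libraries of mice 1 to 4. Both libraries of mouse 4 were high and those of mouse 3 low, so the groups overlapped although Hbegf was higher in the Dll1+ cells of every mouse. Within mice the increase was 0.59, 0.55 and 0.59 on the log2 scale of CPM in mice 1, 2 and 3 and 0.87 in mouse 4, and the fitted log2 fold change was 0.65 (SE 0.07, edgeR adjusted p = 0.00710), 1.57-fold. It was the member whose call held when any mouse was left out. Immediate-early genes that tissue digestion can induce moved with it: 9 of 14 were higher in Dll1+ cells and none lower, with a median log2 fold change of 0.56 and a summed level of 17342 to 30020 CPM in the Dll1- and 26740 to 41493 CPM in the Dll1+ libraries. Their part in the Hbegf difference was not tested.

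Nrg1 had the largest increase of the set. It was at 2.73, 3.60, 3.72 and 6.57 CPM in the Dll1- and at 17.6, 18.6, 8.24 and 11.2 CPM in the Dll1+ libraries of mice 1 to 4, and the lowest Dll1+ library, that of mouse 3, was above the highest Dll1- library, that of mouse 4. The log2 fold change was 1.71 (SE 0.37, 95% interval 0.78 to 2.65, edgeR adjusted p = 0.0423), 3.28-fold. Neuregulins are made by basal cells and by stroma. Of 9 basal and myoepithelial markers, 4 were higher in Dll1+ cells (Krt5, Trp63, Oxtr and Cnn1) and none lower, with a summed level of 152 to 700 CPM in the Dll1- and 239 to 1521 CPM in the Dll1+ libraries, which overlapped. By reporter, the median log2 fold change of these markers was 0.89 in the GFP and 1.57 in the mCh mice. That of Nrg1 ran the other way, at 2.52 in the GFP and 0.96 in the mCh mice. Of 8 fibroblast markers none was called over the 4 mice. Their summed level was 1078 to 21592 CPM in the Dll1- and 992 to 3262 CPM in the Dll1+ libraries. In the mCh mice 5 of the 8 were lower in Dll1+ cells, with a median log2 fold change of -2.26. In the GFP mice none was called, with a median of -0.11. The parts of basal cells and of stroma in the Nrg1 difference were not tested. A long noncoding gene on the opposite strand, Gm26578, overlaps Nrg1 exons by 482 bases and held 3.53% as many counts as Nrg1.

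The other 2 ligands did not pass the test. Btc was at 7.85, 6.72, 3.96 and 3.90 CPM in the Dll1- and 8.20, 9.30, 5.62 and 4.98 CPM in the Dll1+ libraries, with a log2 fold change of 0.35 (95% interval 0.03 to 0.66, edgeR adjusted p = 0.125). Its level followed the reporter line, with the 4 GFP libraries above the 4 mCh libraries. Ereg was at 0.648, 0.763, 1.11 and 3.63 CPM in the Dll1- and 0.872, 0.447, 0.733 and 5.59 CPM in the Dll1+ libraries, higher in the Dll1+ cells of 2 mice and lower in those of 2. The log2 fold change was -0.05, with an interval of -0.80 to 0.69 (edgeR adjusted p = 0.917), so a change of this width in either direction was not detectable at counts of 19 to 311 per library.

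Among the receptors, Egfr came nearest to the threshold. It was at 70.5, 67.8, 54.0 and 95.5 CPM in the Dll1- and at 130, 166, 88.5 and 96.3 CPM in the Dll1+ libraries of mice 1 to 4. Egfr was higher in the Dll1+ cells of mice 1, 2 and 3, and the 2 libraries of mouse 4 differed by 0.01 on the log2 scale of CPM. The log2 fold change was 0.73 (95% interval 0.19 to 1.26, edgeR adjusted p = 0.0813). Egfr was called with DESeq2, and with edgeR when mouse 4 was left out. Erbb2, the coreceptor without a ligand, was at 110, 93.7, 90.6 and 89.1 CPM in the Dll1- and 104, 129, 107 and 109 CPM in the Dll1+ libraries, higher in 3 of the 4 mice, with a log2 fold change of 0.23 (SE 0.09, edgeR adjusted p = 0.152). Erbb3, which binds Nrg1, was at 228, 210, 123 and 115 CPM in the Dll1- and 182, 187, 118 and 131 CPM in the Dll1+ libraries, with a log2 fold change of -0.09 (95% interval -0.31 to 0.13, edgeR adjusted p = 0.539). Erbb2 shares 9 exonic bases with Mien1 on the opposite strand.

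**Figure D2:**
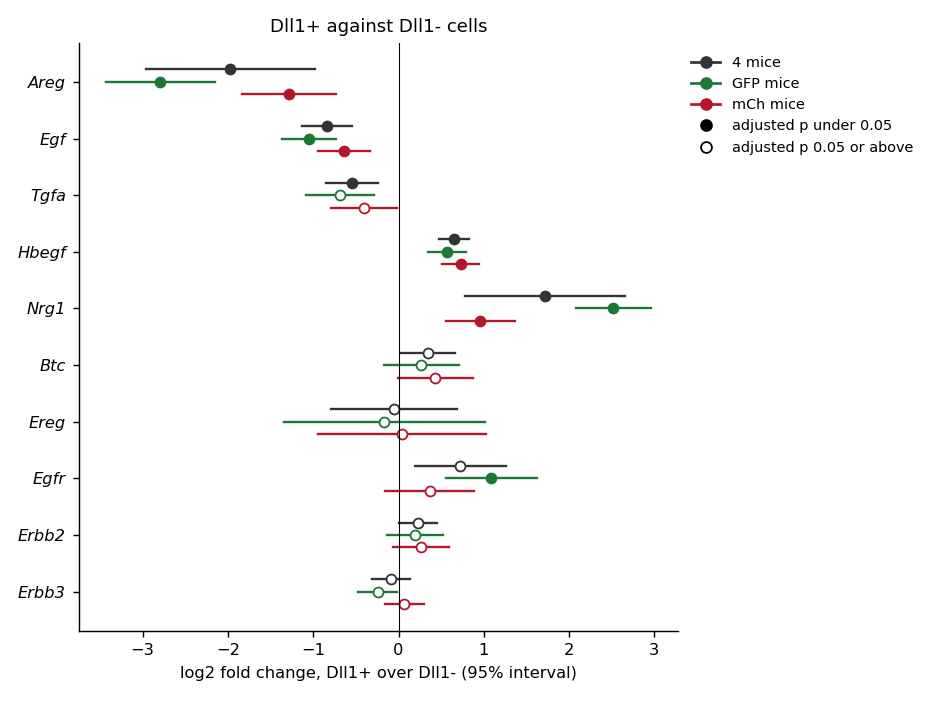
Log2 fold change of each member between Dll1+ and Dll1- cells (horizontal axis) with 95% intervals as lines, over the 4 mice, the GFP mice and the mCh mice; filled points have an edgeR adjusted p under 0.05. Areg, Egf, Hbegf and Nrg1 are filled in the 3 estimates, Tgfa over the 4 mice alone, and Egfr in the GFP mice alone.

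Since Areg fell and Hbegf rose, the makeup of the ligand pool differed between Dll1+ and Dll1- cells. The per-length levels of the 7 ligands that bind the EGF receptor (Areg, Egf, Tgfa, Hbegf, Btc, Ereg and Epgn) were summed in each library, a measure chosen after the values had been seen. In the Dll1- libraries of mice 1 to 4 Areg held 39.2%, 30.7%, 61.6% and 33.9% of that sum, and in the Dll1+ libraries 5.27%, 6.35%, 30.0% and 13.1%. Hbegf held 41.8%, 45.6%, 25.3% and 52.6% of it in the Dll1- and 77.9%, 74.6%, 55.4% and 73.1% in the Dll1+ libraries. The share of Areg was lower and that of Hbegf higher in the Dll1+ cells of every mouse, and neither share overlapped between Dll1+ and Dll1- libraries. The level of Hbegf was 0.411 to 1.55 times that of Areg in Dll1- cells and 1.85 to 14.8 times in Dll1+ cells. The sum itself was lower in the Dll1+ cells of mice 1, 2 and 3, at 28.9, 27.0 and 26.6 against 35.8, 30.0 and 38.6 CPM per kb, and higher in those of mouse 4, at 78.9 against 60.1. No test was run on these shares, which follow from the genes described above. Their size, and that of the ratios of Hbegf to Areg, depends on the merged exon lengths used.

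**Figure D3:**
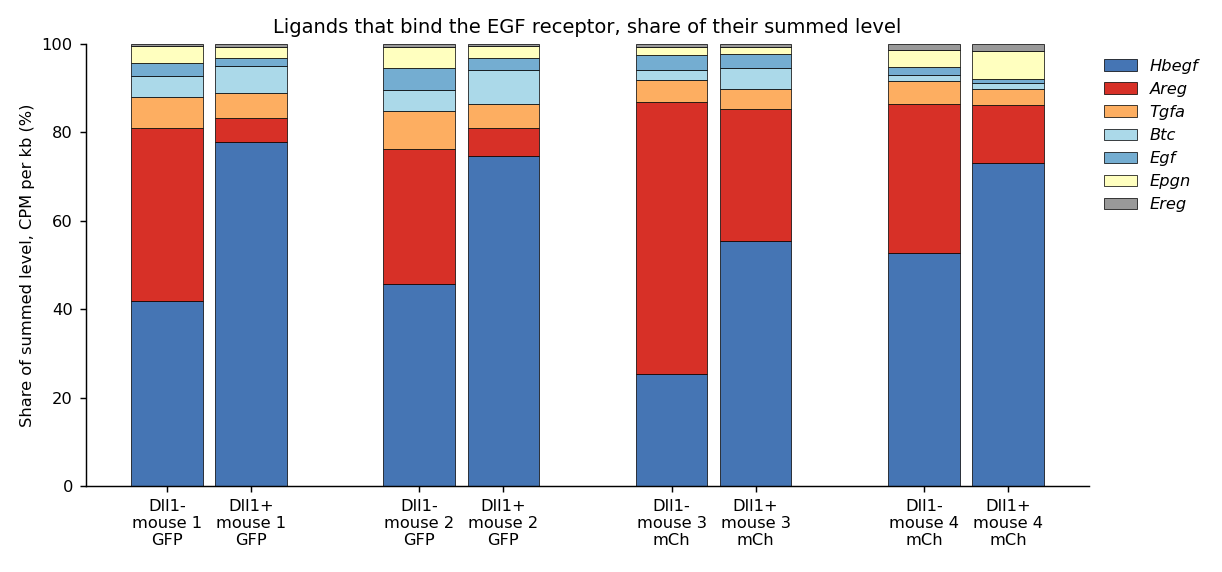
Share (vertical axis, %) of each ligand in the summed CPM per kb of the 7 ligands of the EGF receptor, one stacked bar per library, grouped by mouse. In the Dll1+ bars Hbegf holds 55.4% to 77.9% and Areg 5.27% to 30.0%, and in the Dll1- bars Hbegf holds 25.3% to 52.6% and Areg 30.7% to 61.6%.

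Among the receptors the same measure changed less. Erbb3 held 42.7% to 58.3% of the summed per-length level of the 4 ERBB receptors in Dll1- cells and 40.7% to 48.4% in Dll1+ cells, Erbb2 30.1% to 40.6% and 32.1% to 42.6%, and Erbb4 at most 1.56% in any library. Egfr held 9.45%, 10.03%, 11.1% and 18.8% in the Dll1- and 18.5%, 20.5%, 16.1% and 16.5% in the Dll1+ libraries of mice 1 to 4. Its share was higher in the Dll1+ cells of mice 1, 2 and 3 and lower in those of mouse 4.

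Areg, Ereg, Btc and Epgn lie next to each other on chromosome 5 (GRCm38), within 375.5 kb. Ereg (91074622 to 91093646, plus strand) is 46.0 kb from Areg (91139599 to 91148432, plus strand), and Btc (91357261 to 91402994, minus strand) is 208.8 kb beyond Areg. Neighborhood did not come with 1 direction: Areg fell in the 4 mice, Btc was higher in the Dll1+ cells of the 4 mice without passing the test, Ereg was higher in 2 and lower in 2, and Epgn had a fitted log2 difference of -0.33 (edgeR adjusted p = 0.607). Of the other family genes, Nrg2, a second neuregulin, was higher in Dll1+ cells by 0.61 (SE 0.13, edgeR adjusted p = 0.0346), at 8.19, 12.6, 14.0 and 12.2 CPM in the Dll1- and 16.3, 21.1, 17.2 and 16.5 CPM in the Dll1+ libraries. Erbb4, a receptor of both neuregulins, changed by 0.37 on the log2 scale without passing the test (adjusted p = 0.160), and for Nrg4, whose exons overlap the more abundant Fbxo22 on the opposite strand, the value was -0.42 (adjusted p = 0.395).

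The second comparison asked whether the 2 reporters give the same Dll1 effect. In the GFP mice 5 members were called, 3 higher and 2 lower, against 9.13% of the tested genes (4.29% higher and 4.84% lower): Areg (log2 fold change -2.79), Egf (-1.05), Hbegf (0.57), Nrg1 (2.52) and Egfr (1.09, edgeR adjusted p = 0.0449). In the mCh mice 4 were called, 2 higher and 2 lower, against 11.8% of the tested genes (5.51% higher and 6.25% lower): Areg (-1.28), Egf (-0.64), Hbegf (0.73) and Nrg1 (0.96). The calls in the mCh mice drew on the spread shared with the GFP mice: the mCh mice fitted alone gave 0 members and 0% of all genes. The GFP mice fitted alone gave 6 members and 13.1% of all genes. When 1 of the 2 mice of a reporter is left out, 1 mouse stands for that reporter. Calls of its effect then cannot show the spread between its mice. The decrease of Areg was 6.93-fold in the GFP and 2.43-fold in the mCh mice, and the increase of Nrg1 5.74-fold and 1.94-fold. Tgfa had log2 fold changes of -0.69 (adjusted p = 0.0544) and -0.41 (adjusted p = 0.152), and Egfr 0.37 (adjusted p = 0.299) in the mCh mice.

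The difference between the 2 reporters was tested itself, and 0 of the 10 members were called with edgeR, where 0.0710% of the tested genes were. Nrg1 had the largest difference of log2 fold changes, GFP minus mCh, at 1.56 (95% interval 0.97 to 2.15, unadjusted p = 0.000554, adjusted p = 0.0879), and Areg was next at -1.51 (95% interval -2.35 to -0.68, unadjusted p = 0.00473, adjusted p = 0.172). These 2 were the members with an unadjusted p under 0.05, and DESeq2 called both, beside 3.13% of the genes with an adjusted p. The difference for Egfr was 0.72 (95% interval -0.02 to 1.47, adjusted p = 0.390). For Hbegf it was -0.16 (95% interval -0.47 to 0.15) and for Erbb2 -0.08 (-0.54 to 0.39). No member moved one way in both GFP mice and the other way in both mCh mice, which 10.9% of the tested genes did.

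The levels of stromal and immune markers differed between the reporters, more in the Dll1- than in the Dll1+ libraries. Which cells these markers came from was not tested. Fibroblast markers summed to 7539 and 21592 CPM in the Dll1- libraries of mice 3 and 4 and to 3009 and 3262 CPM in their Dll1+ libraries, against 992 to 1226 CPM in the 4 GFP libraries, and 5 of 8 were lower in Dll1+ cells in the mCh mice and none was called in the GFP mice. Pericyte markers (5 of 5), immune markers (6 of 8) and endothelial markers (1 of 6) were also lower in the Dll1+ cells of the mCh mice, with none called in the GFP mice. Luminal epithelial markers were at 5356 to 6705 CPM in the Dll1- and 6242 to 8937 CPM in the Dll1+ libraries, with none of 7 called over the 4 mice, and no marker of these lists was at 0 in all libraries. In the fit over the 4 mice, 5 of 6 luminal progenitor markers rose in Dll1+ cells, 8 of 8 cycling genes fell, and 1 of 3 red cell markers fell. Dll1 itself was at 7.61 to 50.3 CPM in the Dll1- and 87.5 to 250 CPM in the Dll1+ libraries, without overlap. Depth was 27301396 to 123907626 counts per library.

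The third comparison set the mCh mice against the GFP mice within each sort. Its model had no mouse term and took 1 spread from all 8 libraries. The 2 libraries of a mouse were thus treated as independent, although they are paired. In the Dll1- libraries 3 members were called, 1 higher and 2 lower in the mCh mice, against 36.6% of the tested genes (18.7% higher and 17.9% lower). In the Dll1+ libraries the same 3, Areg, Btc and Erbb3, were called, 1 higher and 2 lower, against 30.6% (15.2% higher and 15.4% lower). Without mouse 1 or without mouse 2, no member was called in either sort, and no gene of the table was (0%). Areg was higher in the mCh mice, by 0.93 on the log2 scale in Dll1- cells (SE 0.24, edgeR adjusted p = 0.0221) and by 2.50 in Dll1+ cells (SE 0.26, adjusted p = 0.00332), and the Dll1+ libraries of the mCh mice, at 9.69 and 12.6 CPM, lay on both sides of the lowest Dll1- library of the GFP mice, at 11.2 CPM. Btc was lower in the mCh mice, with log2 fold changes of -0.89 in Dll1- (adjusted p = 0.0114) and -0.72 in Dll1+ cells (adjusted p = 0.0274). Erbb3 was lower as well, with -0.87 in Dll1- (SE 0.10, adjusted p = 0.00207) and -0.56 in Dll1+ cells (SE 0.10, adjusted p = 0.00974), and its 4 GFP libraries (182 to 228 CPM) lay above its 4 mCh libraries (115 to 131 CPM). Btc and Erbb3 were the 2 members whose GFP and mCh libraries did not overlap, and 43.4% of the tested genes had the same property. The share of members called was no larger than that of all genes. Reporter line, mouse and any day of sorting or sequencing cannot be told apart here, and the stromal markers above moved in the same comparison: all 8 fibroblast markers were higher in the Dll1- libraries of the mCh mice, with a median log2 fold change of 3.68, and 5 of 8 in their Dll1+ libraries. Their part in these differences was not tested.

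**Figure D4:**
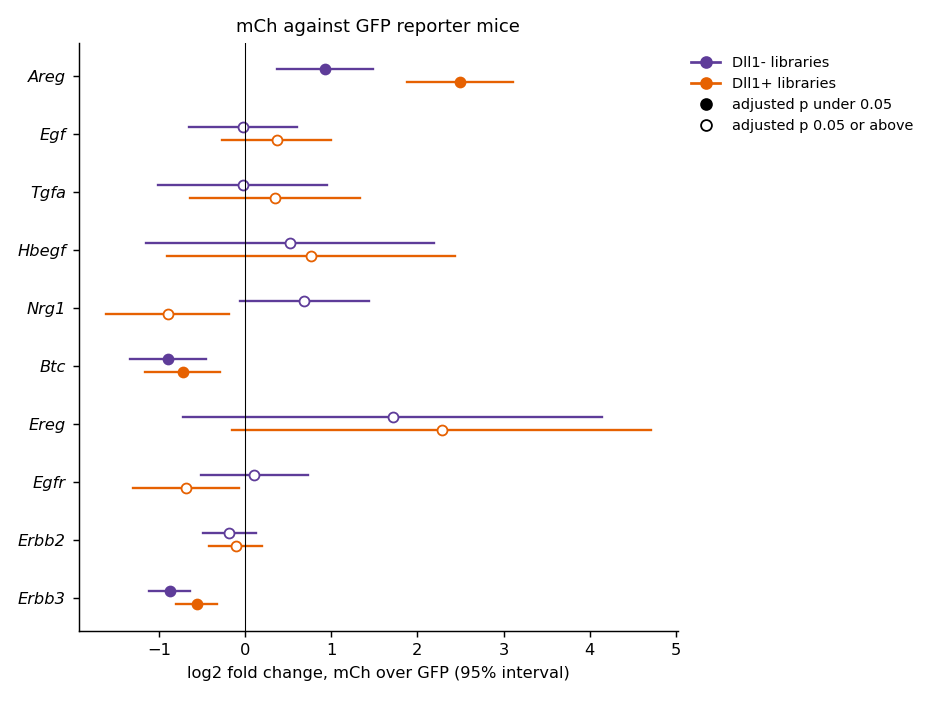
Log2 fold change of each member between mCh and GFP mice (horizontal axis) with 95% intervals as lines, in the Dll1- and the Dll1+ libraries; filled points have an edgeR adjusted p under 0.05. Areg lies to the right of 0 and Btc and Erbb3 to the left in both sorts, and the intervals of Hbegf and Ereg span more than 3 log2 units.

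The 2 mCh mice lay on opposite sides of the GFP mice in Hbegf. It was at 153 and 279 CPM in the 2 libraries of mouse 4 and at 47.3 and 71.1 CPM in those of mouse 3, with the GFP mice in between within each sort. Its log2 fold change between mCh and GFP mice was 0.53 in Dll1- (SE 0.70) and 0.76 in Dll1+ cells (SE 0.70). Without mouse 4 these became -0.51 and -0.53, and without mouse 3 they became 1.14 and 1.40, so the direction depended on which mCh mouse was kept. Each of these fits leaves 1 mCh mouse, so no test in them can measure the spread between mCh mice. Ereg had a log2 difference between reporters of 1.72 in Dll1- (SE 1.02) and 2.28 in Dll1+ cells (SE 1.02), not called in either. Without mouse 3 the Ereg values were 2.36 and 3.08, and without mouse 4 they were 0.70 and 0.19, again with 1 mCh mouse left.

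Genes that act before and after the receptors were followed in 4 lists, whose counts stand beside the 14.0% of all tested genes called over the 4 mice (6.98% higher and 7.04% lower). Among 14 genes of ligand shedding, 3 rose in Dll1+ cells and 1, Adam8, fell over the 4 mice, with a median log2 fold change of -0.001. Rhbdf2 and Rhbdf1, the iRhom partners that mature and direct ADAM17, rose by 0.37 (edgeR adjusted p = 0.0178) and 0.32 (adjusted p = 0.0218), and Timp3, an inhibitor of ADAM17, rose by 0.84 (adjusted p = 0.0317). Adam17, Adam10 and Adam9 were among the 10 that did not pass. Of 23 receptor adaptors and brakes, 3 were higher and none lower, with a median of 0.10, a share called that was near that of all genes. Errfi1, a feedback inhibitor of EGFR that was abundant at 1614 ± 387 CPM in Dll1- and 2189 ± 402 CPM in Dll1+ cells (SD, n = 4 mice), rose by 0.45 (adjusted p = 0.0246), Ptprj, a receptor phosphatase, by 0.40 (adjusted p = 0.0330) and Sos2, which loads RAS with GTP, by 0.27 (adjusted p = 0.0325).

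Of 22 genes of the RAS-MAPK and PI3K core, 2 were lower and none higher, with a median of -0.009, a share called that was below that of all genes. Rps6ka1, which encodes the ERK-activated kinase RSK1, fell by 0.62 (edgeR adjusted p = 0.0165) and Akt1 by 0.36 (adjusted p = 0.0201), and Pik3r3, a regulatory subunit of PI3K, stood at -0.81 without passing (adjusted p = 0.0778). Of 19 genes that EGFR-MAPK signaling induces, 5 were higher and 1 lower, with a median of 0.12. Ier3, an immediate-early gene, rose by 0.77 (adjusted p = 0.00645), Dusp6, a phosphatase that limits ERK, by 0.66 (adjusted p = 0.00693) and Spry2, a feedback inhibitor of RAS signaling, by 0.57 (adjusted p = 0.0109). Egr1 and Ier2 were the other 2 that rose and are also on the list of digestion-induced genes, and Spry1 fell. The remaining genes of the list did not pass.

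**Figure D5:**
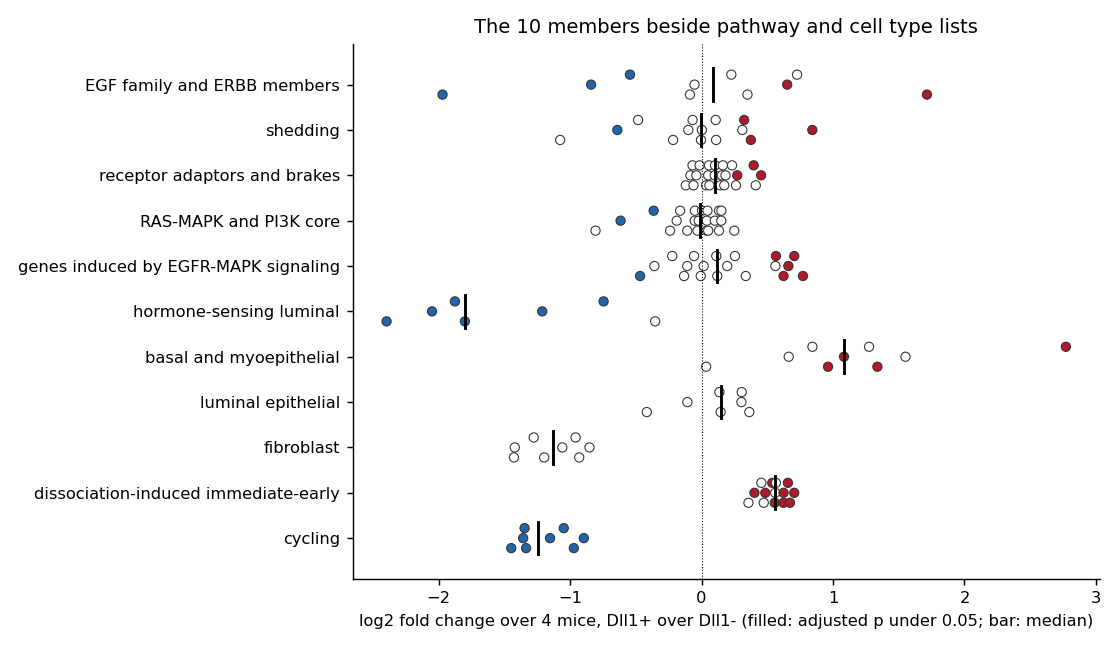
Log2 fold change over the 4 mice between Dll1+ and Dll1- cells (horizontal axis) for each tested gene of the 10 members and of 10 pathway and cell type lists; filled points have an edgeR adjusted p under 0.05, and black bars mark list medians. Members spread from -1.97 to 1.71 around a median of 0.09, hormone-sensing luminal genes lie to the left with a median of -1.80, and digestion-induced genes lie to the right with a median of 0.56.

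For the 5 called members, the 3 genes with the most similar pattern were looked up by the Pearson correlation of log2 CPM over 8 libraries. The search was limited to genes whose mean level reached 10 CPM, which left 10246 or 10247 to compare. The highest of so many values over 8 libraries are high by selection. The libraries are also pairs from 4 mice, so these values are descriptive. Areg ran closest to Smpdl3b (r = 0.99), Cdk18 (0.99) and Hmgn5 (0.99). Egf ran closest to Rps6ka1 (0.98), which is on the RAS-MAPK list above, Fpgs (0.97) and Zranb3 (0.96). For Hbegf the nearest genes were Endod1 (0.99), Snx18 (0.99) and Prkd1 (0.98), for Tgfa Nup54 (0.97), Ywhag (0.97) and Kif2a (0.95), and for Nrg1 Ehd3 (0.98), Casp12 (0.97) and Pfkp (0.96). No gene was listed for more than 1 member among these 15, a small part of the genes compared.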

How the data were processed

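Lineage-negative tumor cells of 4 MMTV-PyMT mice were sorted into Dll1+ and Dll1- cells and their RNA was sequenced (8 libraries, stranded TruSeq kit, collagenase/hyaluronidase digestion). The authors quantified transcripts with Salmon (versions not given in the sources used here) against GRCm38.p6 with GENCODE transcripts, and summed them to genes with tximport; the deposited estimated counts are whole numbers. Salmon shares reads between similar transcripts, so counts of overlapping genes are estimates. Of 53697 genes, 53668 were matched to a symbol by gene ID without its version. Totals were 27301396 to 123907626 counts per library, and precision is limited by 2 mice per reporter.

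Counts were fitted with edgeR 4.0.16 (R 4.3.3): TMM, filterByExpr on Dll1 status, robust quasi-likelihood F test, and Benjamini-Hochberg adjustment over 18322 genes, threshold 0.05. The model over the 4 mice held Dll1 status and mouse, as in the study; the reporter-specific model held mouse and a Dll1 effect per reporter; the comparison of reporters used 4 group means. The 2 libraries of a mouse are paired by the mouse label, and their deviations from the group means correlated at -0.0472 in the GFP and 0.554 in the mCh mice. Alternatives were RLE, DESeq2 1.42.0, no mouse term, no filter, a minimum of 10 counts per library, each reporter or sort alone, and each mouse left out. The lengths are merged exons of GENCODE on GRCm38, and promoter windows are RefSeq's on GRCm38.p6.

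The members, the pathway lists and the markers were chosen with earlier results of these data known. Named genes were the members, the other family genes, up to 3 genes per pathway list with the lowest p, the 3 genes most like each called member, and, chosen after their values were seen, called markers and remaining called genes of a list. Protein sequences were not used here.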

Additional observations from a re-analysis of the deposited data

Results flagged for a closer look

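Of the series of 4 values, 3 held 1 value far from the rest by Dixon's criterion (0.829 for 4 values), out of 30 series examined, of which chance flags about 1 in 20. All 3 came from mouse 4. Ereg in the Dll1- libraries had a gap ratio of 0.844, with 3.63 CPM in mouse 4 against 0.648 to 1.11 CPM in the others, and Ereg in the Dll1+ libraries had a ratio of 0.918, with 5.59 CPM against 0.447 to 0.872 CPM. The Dll1+ minus Dll1- difference of Hbegf had a ratio of 0.888, with 0.87 on the log2 scale in mouse 4 against 0.55 to 0.59 in the others. Epgn, the neighbor of Ereg, was at 4.10 and 8.94 CPM in the Dll1- and Dll1+ libraries of mouse 4.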

How the results depend on the processing

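RLE size factors changed no call of a member in any comparison, and no scaling moved the median of all tested genes by more than 0.1 on the log2 scale. Among the members called over the 4 mice, Hbegf kept its call under every alternative but the one without a mouse term.

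The 2 libraries of a mouse are paired. With no replicate block, 0 members and 0% of all tested genes were called over the 4 mice. In the GFP mice 2 members (Areg and Nrg1) and 1.5% of all genes were called, and in the mCh mice 0 members and 1.16%. For the difference between reporters 0 members and 0% of all genes were called. Ereg over the 4 mice became 0.32. Of the 40 Dll1 estimates refitted without the block, 12 lost their call. With the block, 5 had a call over the 4 mice, 5 in the GFP mice, 4 in the mCh mice and 0 for the difference.

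Without the filter on low counts, 3 members were called over the 4 mice (Egf, Hbegf and Tgfa), beside 7.15% of all genes. For the difference between reporters 3 were called (Areg, Nrg1 and Egfr), beside 3.28% of all genes. Egf and Tgfa in the mCh against GFP comparison of Dll1- cells became 0.026 and 0.012. DESeq2 called 2 members for the difference between reporters (Areg and Nrg1), beside 3.13% of the genes with an adjusted p. It called 6 for mCh against GFP in Dll1+ cells, beside 34.1% of such genes. Dll1+ libraries fitted alone gave 5, beside 27.4% of all genes. The mCh mice fitted alone gave 0, and 0% of all genes.

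Leaving out each mouse in turn gave 1 to 6 called members over the 4 mice, 0 to 6 in the GFP mice, 1 to 3 in the mCh mice, 0 to 2 for the difference between reporters, 0 to 7 for mCh against GFP in Dll1- cells and 0 to 8 in Dll1+ cells. The GFP effect had 0 calls without mouse 1 or mouse 2, which leaves 1 GFP mouse, assumed to vary like the others. Without mouse 3, the mCh effect had 1 call, Hbegf, and without mouse 2 it had 2, Areg and Hbegf. Between reporters, 0 were called without mouse 1 or mouse 2, 7 and 8 without mouse 3, and 4 and 5 without mouse 4, in Dll1- and Dll1+ cells. Members whose direction changed when a mouse was left out ranged, over the 4 mice Ereg -0.34 to 0.15, within the GFP mice Ereg -0.76 to 0.43 and Erbb2 -0.081 to 0.46, within the mCh mice Ereg -0.63 to 0.60, Egfr -0.00895 to 0.68 and Erbb3 -0.084 to 0.17, for the difference of effects between reporters Btc -0.37 to 0.0397, Ereg -0.81 to 0.47, Hbegf -0.26 to 0.022, Tgfa -0.53 to 0.038 and Erbb2 -0.35 to 0.20, for mCh against GFP in Dll1- cells Egf -0.25 to 0.20, Hbegf -0.51 to 1.14, Tgfa -0.37 to 0.29 and Egfr -0.31 to 0.46, for mCh against GFP in Dll1+ cells Hbegf -0.53 to 1.40, Tgfa -0.41 to 0.81 and Erbb2 -0.27 to 0.034 (log2). None of these was called with all mice. The cause of these changes was not tested.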
